A study of Triticum aestivum and Triticum turgidum subsp. durum with 27 samples.

Results

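The response of the glume to mild drought was compared between the durum wheat cultivar Creso and the bread wheat CS (Chinese Spring). For every probe set on the array the change from CTRL to MS in CS was subtracted from the change from CTRL to MS in Creso, so that a positive difference means a higher response in Creso. All probe sets other than the manufacturer's controls were members, 61179 in all, and 34089 of them were bright enough to be tested. The comparison used 12 of the 27 arrays of the series, 3 each of Creso CTRL, Creso MS, CS CTRL and CS MS.

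Creso is a tetraploid with the A and B genomes and CS a hexaploid that also carries the D genome. Plants were kept near field capacity (28% soil water) until 3 days post anthesis, and watering then went on for CTRL and was stopped for MS, the milder of the drought levels. The labels give 7 days after anthesis for the Creso samples and 10 for those of CS. The study's methods give other days, which also differ between the genotypes. At the same soil water the study reports a more negative leaf water potential in Creso than in CS, under CTRL and under MS. Genotype, ploidy, stage and degree of water deficit therefore cannot be told apart here. Arrays of CS_5AL-10, a CS line with a terminal deletion on the long arm of chromosome 5A, entered the estimate of the spread, and its own MS response is given beside that of CS.

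Glumes are the green bracts that enclose the wheat spikelet, and they photosynthesise and lose water alongside the developing grain. Drying soil raises the hormone abscisic acid (ABA), which is made from carotenoids and closes stomata. Plants that lose water also build up proline and dehydrins, which are known to protect cell contents, and reset cell wall growth, photosynthesis and defence genes.

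RNA of green tissue was present on every array. The mean log2 value of 60 photosynthesis probe sets ranged from 10.76 to 11.25 on the 6 Creso arrays and from 9.92 to 10.91 on the 6 CS arrays. Grain RNA was not even among the arrays. The mean log2 value of 13 endosperm storage protein probe sets (gliadins, avenin-like proteins and serpins) was 5.39, 5.50 and 5.25 on the Creso CTRL arrays and 8.97, 5.51 and 5.34 on the Creso MS arrays. It was 11.04, 10.73 and 11.28 on the CS CTRL arrays and 10.82, 11.14 and 5.50 on the CS MS arrays. On these probe sets Creso MS replicate 1 was thus high and CS MS replicate 3 low against their groups. The mean of 5 grain starch synthesis probe sets was 7.23, 6.55 and 6.51 in Creso CTRL and 9.97, 7.32 and 8.65 in Creso MS. It was 9.02, 9.15 and 9.10 in CS CTRL and 8.85, 9.37 and 7.59 in CS MS. That list was thus also raised on Creso MS replicate 3, which stays in when the other 2 arrays are left out. In bulk RNA of this kind a change in the share of a tissue and a change in its expression cannot be told apart. The arrays correlated with their own replicates at 0.924 or more, and 3 arrays per group limit the precision.

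A difference was called at an adjusted p under 0.05 in limma and at least 2-fold, or 1 on the log2 scale. Of the 34089 probe sets 202 were called (0.593%), 60 with a higher response in Creso (0.176%) and 142 with a lower one (0.417%). The median difference over all tested probe sets was -0.10, and 57.4% of them lay below 0. In its own test Creso had 436 called probe sets (1.28%), of which 241 were higher under MS (0.707%) and 195 lower (0.572%). CS had 792 (2.32%), of which 583 were higher (1.71%) and 209 lower (0.613%). The 2 responses share no array. With its own t-test and filter on RMA values, the study reported no significant MS change in Creso and fewer in CS than here.

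The count of calls moved with single arrays. Leaving out 1 of the 12 arrays gave between 28 calls, without CS CTRL replicate 2, and 505, without CS CTRL replicate 1. All 202 kept their direction in each of these 12 fits, which their choice on the same arrays favours. Of them 22 (5 higher and 17 lower) stayed called in every one. Without Creso MS replicate 1 and CS MS replicate 3 there were 91 calls, 68 of them among the 202. The share of lower calls was 70.3%. It was 56.7% with quantile normalization and 55% without centring, where the median difference over all probe sets was -0.00. In the fit of the 12 arrays alone it was 51.4%, with 36 higher and 38 lower calls.

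**Figure D1:**
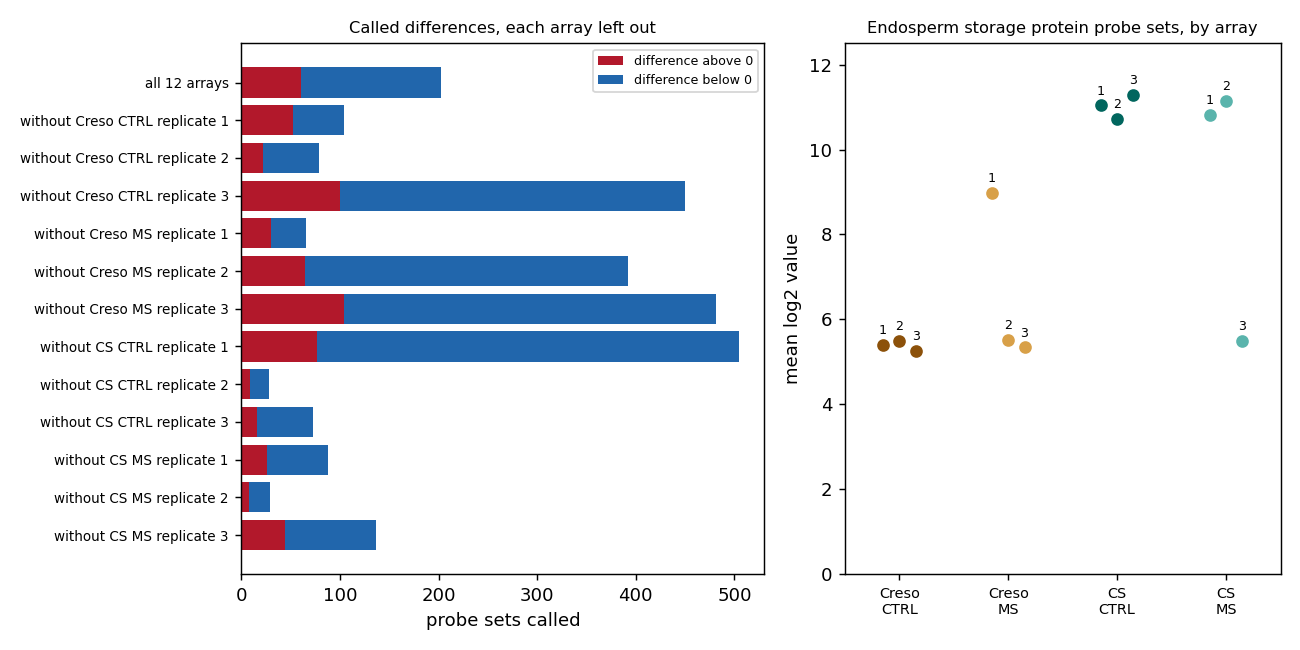
Left, the number of called differences (x axis) with all 12 arrays and with each array left out (y axis), divided into differences above and below 0. Right, the mean log2 value of 13 endosperm storage protein probe sets on each array, with the replicate number above each point. The count ran from 28 to 505, and Creso MS replicate 1 (8.97) and CS MS replicate 3 (5.50) lay apart from their groups.

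Among the 202 the sign of the change was opposite in Creso and CS for 187, a count that choosing by the difference favours. Over all tested probe sets the signs were opposite in 46.8%. In single genotypes 71 were called in Creso alone, 57 in CS alone, 9 in both and 65 in neither. The 60 higher probe sets had a median change of 1.44 in Creso and -0.58 in CS, while the 142 lower ones had -0.76 in Creso and 0.92 in CS. The lower probe sets were higher in Creso CTRL than in CS CTRL in 121 cases (85.2%, against 63% of all tested), with a median of 1.25 on the log2 scale. Under MS their median was -0.57. The Creso CTRL and CS CTRL arrays enter both the level and the difference, so these levels are a description of the called probe sets.

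**Figure D2:**
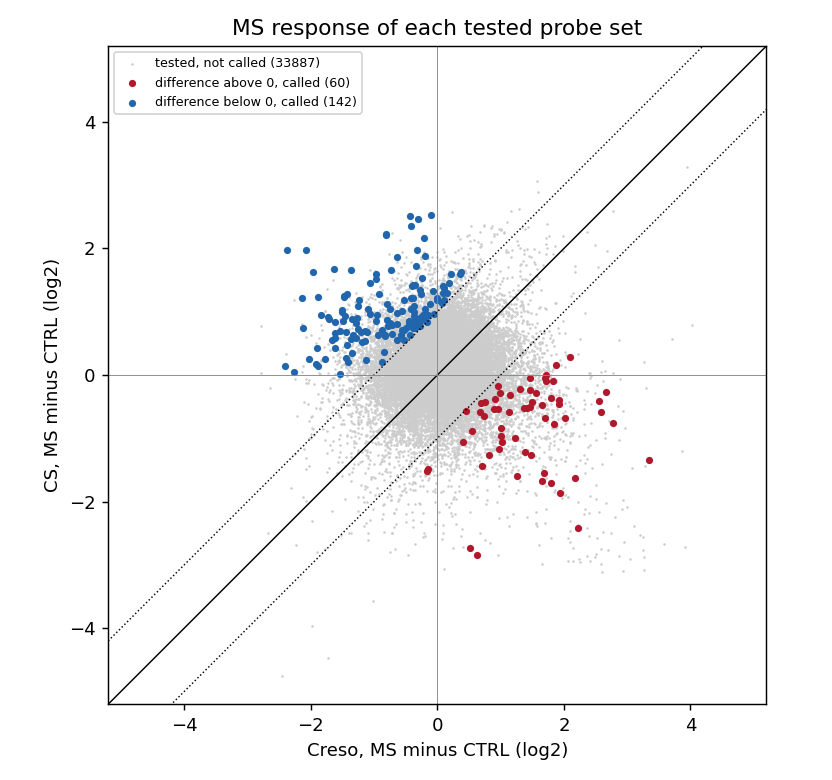
The change from CTRL to MS on the log2 scale in Creso (x axis) and in CS (y axis) for each of 34089 tested probe sets. The solid line marks equal changes and the dotted lines a difference of 1 either way. The 60 called probe sets with a higher response in Creso lie mostly at the lower right, and the 142 with a lower response mostly at the upper left.

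Names were held for 51 of the 202 called probe sets, 17 higher and 34 lower, almost all of them the best Arabidopsis match of the wheat sequence. Of 51 tested probe sets of the pathogenesis-related and defence list 4 were called, all 4 higher in Creso, against 0.176% of all tested probe sets and 17 of the 1289 tested ones with a name. Beta-1,3-glucanases, a further defence class that this list does not hold, were called lower on 3 probe sets and are given with the glycosyl hydrolases. The median difference of the list was 0.56, against -0.10 over all tested, and 16 of the 51 lay below 0. The list's median change was 0.31 in Creso and -0.49 in CS. The median difference was 0.57 without Creso MS replicate 1 and CS MS replicate 3.

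Class IV chitinase (best Arabidopsis match AT3G54420), an enzyme that cleaves the chitin of fungal walls, read 310, 359 and 134 on the Creso CTRL arrays and 546, 904 and 926 on the Creso MS arrays. In CS it read 627, 876 and 1210 under CTRL and 258, 184 and 257 under MS. Every MS array of Creso was above its CTRL arrays and every MS array of CS below them. The change was 1.65 ± 0.40 (SE) in Creso and -1.68 ± 0.40 in CS, a difference of 3.33 ± 0.56 (adjusted p = 0.0101). It was called without any 1 of the 12 arrays. In CS_5AL-10 the change was -2.35 (adjusted p = 0.00126).

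An osmotin-like protein (best match OSM34, AT4G11650), of a family named for its accumulation under osmotic stress, went from 426, 332 and 374 to 1139, 975 and 2547 in Creso. In CS it went from 344, 475 and 839 to 194, 72.1 and 100. Neither genotype's groups overlapped. The difference was 3.81 ± 0.78 (adjusted p = 0.0293), and 8 of the 12 fits without 1 array called it. A further osmotin-like probe set with the symbol PR5 had a difference of 4.63 ± 1.06 (adjusted p = 0.0442) but was called in 3 of those 12 fits. Its CS MS arrays read 212, 5.73 and 85.8, which spread more widely than the other groups.

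The pathogenesis-related protein matched to AT2G14580 read 43.3, 93.0 and 98.5 under CTRL and 232, 184 and 262 under MS in Creso. In CS it read 156, 139 and 134 and then 39.6, 52.0 and 37.4. The groups did not overlap in either genotype, and the difference was 2.74 ± 0.58 (adjusted p = 0.0326), with 4 of 12 calls when an array was left out. The signal lay at or below the array median on all CS MS arrays.

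An allergen V5/Tpx-1-related protein (AT5G57625), of the secreted family that includes the PR-1 proteins, rose in Creso from 461, 338 and 464 to 819, 1640 and 895. In CS it fell from 553, 700 and 662 to 249, 184 and 275. Its difference was 2.61 ± 0.48 (adjusted p = 0.0155), and its change in CS_5AL-10 was -2.43 (adjusted p = 3.0e-04). A secretory protein (AT2G15220) had a difference of 2.14 ± 0.46 (adjusted p = 0.0355), with a change of 0.98 in Creso and a fall of 1.16 in CS. In CS_5AL-10 16 of the 51 probe sets of the list were called lower under MS (1.5% of all tested and 99 of the 1289 with a name). In CS 3 of them were (0.613% of all tested and 36 of 1289). The contrast between these responses was not tested.

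The largest differences in the defence list were not called. The probe sets with the symbol THI1.1, a thionin, had differences of 5.15 and 5.24 with adjusted p = 0.365 and 0.372.

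Glycine hydroxymethyltransferase, which turns serine and glycine into each other and supplies single-carbon units, was called on 4 probe sets (AT4G13930) with differences from 1.70 to 1.81. On the probe set with the largest of these differences Creso read 5130, 3939 and 6732 under CTRL and 14540, 19651 and 14757 under MS. CS read 5719, 8396 and 7092 and then 5816, 4967 and 6751. The Creso groups lay well apart and those of CS overlapped. The change was 1.72 ± 0.25 in Creso and -0.09 ± 0.25 in CS (adjusted p of the difference 0.0205). These 4 probe sets share a name and may read the same or near-identical homoeologous transcripts, so they are not independent. Without Creso MS replicate 1 and CS MS replicate 3 the differences were 1.99 to 2.14.

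S-adenosylhomocysteine hydrolase (SAHH), the enzyme that clears the by-product of methylation reactions, was called on 2 probe sets. The first went from 20483, 21647 and 22563 to 37128, 36811 and 41547 in Creso and from 23775, 35394 and 29716 to 23169, 17298 and 19906 in CS. All Creso MS arrays exceeded those of CTRL, and all CS MS arrays were below those of CTRL. The differences were 1.28 ± 0.26 (adjusted p = 0.0285) and, on the other probe set, 1.53 ± 0.32 (adjusted p = 0.0326). The other was chosen after its values were seen.

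Inorganic pyrophosphatase (AT3G53620), which removes the pyrophosphate that biosynthesis releases, read 663, 417 and 398 in Creso CTRL and 848, 1155 and 830 in Creso MS. It read 366, 559 and 424 in CS CTRL and 196, 202 and 180 in CS MS. The groups did not overlap in either genotype. It rose by 1.01 ± 0.25 in Creso (adjusted p = 0.0408), and its change of -0.97 ± 0.25 in CS (adjusted p = 0.0269) was short of 2-fold. These gave a difference of 1.98 ± 0.36 (adjusted p = 0.0155) that 11 of the 12 fits without 1 array called.

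AGP19 (AT1G68725), matched to a lysine-rich arabinogalactan protein of the cell wall and membrane surface, rose in Creso from 3500, 2659 and 5645 to 19779, 26027 and 18886. In CS it read 623, 1044 and 544 and then 307, 351 and 642, which overlapped. The change was 2.58 ± 0.43 in Creso and -0.59 ± 0.43 in CS, a difference of 3.16 ± 0.61 (adjusted p = 0.0205). A further probe set matched to AGP19 had a difference of -2.19, with an adjusted p of 0.0527.

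A ubiquitin extension protein (UBQ1, AT3G52590), which carries a ribosomal protein fused to ubiquitin, was called on signal at or below the array median on all 6 Creso arrays. These read 0.885, 7.35 and 7.76 under CTRL and 48, 23.2 and 56.3 under MS, whereas the CS arrays read 747 to 1776. Its difference was 1.93 ± 0.36 (adjusted p = 0.0187). The probe set passed the filter on low values through CS alone, and the size of its change in Creso is not well determined. At so low a level the value of 16 added before the logarithm compresses the change in Creso.

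Of the lists of signalling and regulatory genes, that of ABA signalling held 1 called difference of 14 and that of transcription factors 8 of 58. That of hormone synthesis and response held 1 of 21, the ERF-type factor, which the transcription factor list also holds. All of them were lower in Creso, against 0.417% of all tested probe sets and 34 of the 1289 with a name. With 1 call each, the ABA and hormone lists are too small to be set apart from these shares. None of 42 protein kinases was called by limma, with 15 at an unadjusted p under 0.05. The median difference was 0.12 for the hormone list and 0.08 for the kinases. Protein phosphatase 2C (AT2G30020), of the enzyme class that holds negative regulators of ABA and stress signalling, read 3991, 2574 and 2429 in Creso CTRL and 695, 853 and 986 in Creso MS. It read 1113, 1025 and 2146 in CS CTRL and 2691, 2918 and 1376 in CS MS. The Creso groups did not overlap and those of CS did. It fell by 1.71 ± 0.31 in Creso and changed by 0.88 ± 0.31 in CS (adjusted p = 0.0987), a difference of -2.59 ± 0.44 (adjusted p = 0.0111) called without any 1 array. Another probe set of the same sequence cluster had a difference of -1.81 that was not called (adjusted p = 0.14). The former was the only called member of the 14 probe sets of the ABA signalling list, whose median difference was -0.65 with 11 below 0. That list was drawn by name, here the name of the phosphatase class, and also holds an abscisic aldehyde oxidase. A role of this phosphatase in ABA signalling is thus not shown. In CS_5AL-10 the called phosphatase probe set changed by -0.43 (adjusted p = 0.503).

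An ERF-type factor (AT5G44210), of the ethylene response factor family of transcription regulators, read 8758, 5703 and 5952 in Creso CTRL and 2230, 3014 and 2364 in Creso MS. In CS it read 3338, 2736 and 3971 and then 5085, 5328 and 3458. It fell by 1.33 ± 0.23 in Creso, with no overlap, and had a change of 0.63 ± 0.23 in CS (adjusted p = 0.115). The difference of -1.96 ± 0.33 (adjusted p = 0.0101) was called without any 1 array. In CS_5AL-10 it fell by 1.14 (adjusted p = 0.00624), the same direction as in Creso.

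Calcium-binding EF-hand protein (AT5G54490), a calcium sensor family, read 17559, 14503 and 12867 under CTRL and 3037, 5901 and 4802 under MS in Creso. In CS it read 5539, 5556 and 8836 and then 10029, 8592 and 7093, which overlapped. Its difference was -2.24 ± 0.43 (adjusted p = 0.0205). A pair of RING finger proteins, a family known mostly as ubiquitin ligases, was also lower, with a difference of -1.92 (AT1G63840) and differences of -1.79 and -1.61 (2 probe sets matched to AT5G01520). The former fell in Creso (-1.36) and the latter rose in CS (1.43 and 1.34). Each of the 3 probe sets was called in 5 of the 12 fits without 1 array. The EF-hand protein was called in 8 of them, and not without both Creso MS replicate 1 and CS MS replicate 3 (adjusted p = 0.0594).

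The transcription factor list, which counts zinc finger proteins, held 8 called probe sets of 58, all 8 lower in Creso, against 0.417% of all tested and 34 of the 1289 with a name. They were the ERF-type factor, the 3 RING finger probe sets and 4 probe sets of 1 B-box zinc finger protein (AT1G68520), with differences from -1.01 to -1.26. The RING finger proteins are in the list by name and need not be transcription factors. The 4 B-box probe sets may read the same or near-identical transcripts, so the 8 are not independent. B-box proteins are known regulators of light responses. On the probe set at -1.26 CS rose from 2980, 1574 and 1757 to 4291, 5808 and 4038, while Creso read 10903, 11079 and 11376 under CTRL and 12604, 10518 and 11195 under MS. The CS groups did not overlap and the Creso groups did. The B-box protein was chosen after its values were seen. The median difference of the list was -0.66, with 40 of 58 below 0.

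A nudix protein (AT1G73540), of the hydrolases of nucleotide derivatives, was called on 2 probe sets, which may read the same transcript. The first went from 2084, 1572 and 1690 to 347, 524 and 524 in Creso and from 496, 412 and 601 to 1039, 1007 and 618 in CS. The groups did not overlap in either genotype. The fall in Creso was called (-1.84, adjusted p = 0.00588) and the change in CS was not (0.95, adjusted p = 0.102), with a difference of -2.80 ± 0.48 (adjusted p = 0.0113) that no left-out array removed. In CS_5AL-10 the first changed by -0.14 (adjusted p = 0.878). The other, chosen after its values were seen, had a difference of -2.22 ± 0.47 (adjusted p = 0.0327).

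Choline kinase (AT1G74320), which starts the path to phosphatidylcholine, fell from 1285, 1396 and 976 to 447, 454 and 662 in Creso. In CS it read 988, 785 and 690 and then 1015, 1211 and 954. The Creso groups were apart and those of CS overlapped. The difference was -1.68 ± 0.29 (adjusted p = 0.0113) and was called without any 1 array. It was not called in the fit of the 12 arrays alone (adjusted p = 0.0758). An expressed protein of unknown role (best match AT3G21570) also had a lower response in Creso on 2 probe sets. Their differences were -2.71 ± 0.45 and -2.35 ± 0.33 (adjusted p = 0.00948 and 0.00472). On both it was called lower in Creso. In CS the change was called on the former (1.28) and lay below 2-fold on the latter (0.86). In CS_5AL-10 the changes were opposite to CS, -1.08 (adjusted p = 0.053) on the former and -1.20 (adjusted p = 0.00416) on the latter. Another expressed protein (AT5G12010) fell in Creso from 4166, 2985 and 3447 to 851, 1198 and 1216, without overlap. CS read 2364, 1470 and 2328 and then 3736, 3254 and 1834, which overlapped, and the difference was -2.27 ± 0.41 (adjusted p = 0.0152).

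A transport inhibitor response protein (AT5G49980), of the family that holds the auxin receptors, rose in CS from 936, 1039 and 1311 to 1592, 2190 and 2524. Creso read 186, 372 and 310 and then 224, 214 and 167. The CS groups were apart and the Creso groups overlapped. The difference was -1.47 ± 0.30 (adjusted p = 0.0299) and was called in 7 of the 12 fits without 1 array. Its adjusted p was 0.104 without Creso MS replicate 1 and CS MS replicate 3.

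The list of 39 cell wall enzymes and proteins held 1 called probe set in each direction, AGP19 higher and beta-expansin lower. Of the 1289 tested probe sets with a name 17 were called higher and 34 lower (0.176% and 0.417% of all tested). Its median difference was -0.05, with 53.8% below 0 against 57.4% of all tested. Beta-expansin (AT1G65680), of the proteins that loosen grass cell walls, fell in Creso from 6851, 5120 and 3456 to 625, 821 and 1290. In CS it stood at 234, 248 and 231 under CTRL and 215, 314 and 186 under MS. Again the Creso groups were apart and those of CS overlapped. The change was -2.41 ± 0.42 in Creso and 0.15 ± 0.42 in CS, a difference of -2.56 ± 0.60 (adjusted p = 0.0485) that was kept in 4 of 12 fits without 1 array.

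A glycosyl hydrolase family 1 protein (AT4G27830), of the plant beta-glucosidases, went from 1763, 744 and 1392 to 4587, 4943 and 6043 in CS. In Creso it read 13232, 14960 and 11767 and then 5797, 5910 and 10718. Both pairs of groups were apart, in opposite directions, but only the rise in CS was called (2.23, adjusted p = 0.00471). The difference was -3.05 ± 0.62 (adjusted p = 0.0285). It was called in 6 of the 12 fits without 1 array, and its adjusted p was 0.112 without Creso MS replicate 1 and CS MS replicate 3.

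Glycosyl hydrolase family 17, the beta-1,3-glucanases that include the PR-2 proteins, was called on 3 probe sets of 1 sequence cluster (AT3G57270 and AT4G16260), at -2.77, -2.76 and -2.31. They were chosen after their values were seen. On the probe set at -2.77 CS rose from 3894, 1255 and 4126 to 12833, 15608 and 11930, and Creso read 9536, 6981 and 11109 under CTRL and 6754, 5666 and 8768 under MS. Thus the CS groups were apart and those of Creso overlapped, the opposite direction to the chitinase and osmotin-like genes. The 3 probe sets were called in 6 or 7 of the 12 fits without 1 array.

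The glucosyltransferase matched to UGT72B1 (AT4G01070), known in Arabidopsis to conjugate foreign phenols, rose in CS from 117, 157 and 168 to 542, 1412 and 687. In Creso it read 81.1, 122 and 239 and then 94.3, 98.0 and 79.9. The CS groups were apart and the Creso groups overlapped. The difference was -2.95 ± 0.62 (adjusted p = 0.0327), called in 7 of the 12 fits without 1 array and not without both Creso MS replicate 1 and CS MS replicate 3 (adjusted p = 0.0875). A cytochrome P450 (AT2G45510) rose in CS by 2.17 ± 0.34, from 185, 164 and 199 to 749, 1200 and 514, while the rise in CS_5AL-10 was 2.18 (adjusted p = 7.7e-04). On all 6 Creso arrays it lay at or below the array median, at 10.7 to 47.7, so its difference of -2.38 ± 0.48 (adjusted p = 0.0286) is against a genotype with hardly any signal.

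A hydrophobic protein (AT2G38905) rose in CS from 963, 800 and 704 to 2167, 3606 and 1794, while the rise in CS_5AL-10 was 2.23 (adjusted p = 8.1e-05). In Creso it read 3048, 3566 and 2102 and then 1740, 2844 and 1984. The difference was -2.05 ± 0.40 (adjusted p = 0.0205). The small heat shock protein HSP26.5-P (AT4G21870) fell in Creso from 36.6, 136 and 112 to 9.92, 11.4 and 2.46, with 4 of the 6 Creso arrays at or below the array median. CS read 966, 1068 and 801 and then 1082, 798 and 1131. Its difference was -2.27 ± 0.53 (adjusted p = 0.0462), called in 3 of 12 fits without 1 array. The list of 11 heat shock and chaperone probe sets held no other called member (0.417% of all tested and 34 of the 1289 with a name were called lower). Its median difference was -0.55.

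**Figure D3:**
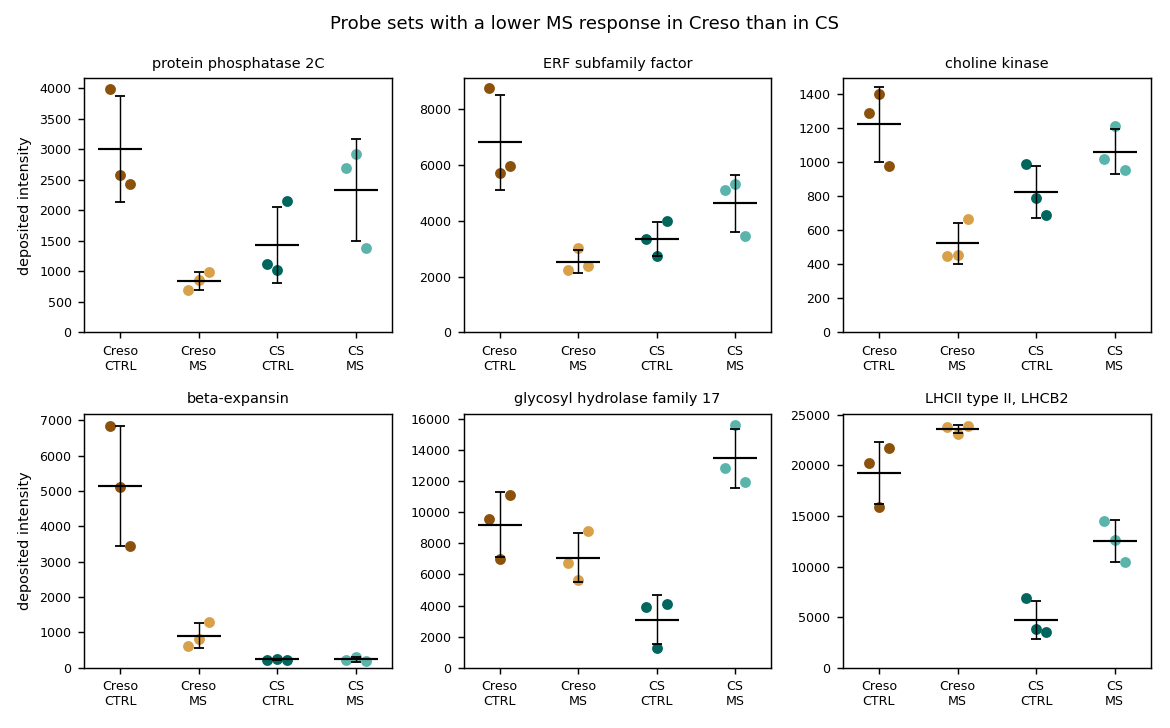
Deposited intensity (y axis, linear from 0) of 6 probe sets with a lower MS response in Creso on the 3 arrays of each of the 4 groups (x axis). Points are arrays, horizontal lines the mean and error bars the SD of 3 arrays. Protein phosphatase 2C, the ERF factor, choline kinase and beta-expansin fall in Creso, and glycosyl hydrolase family 17 and LHCB2 rise in CS.

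Of 60 tested photosynthesis probe sets 18 were called higher under MS in CS (1.71% of all tested and 144 of the 1289 with a name). None was called in Creso in limma, where 10 had an unadjusted p under 0.05. The median change was 0.13 in Creso and 0.75 in CS. The difference itself was called on 2, both lower (0.417% of all tested and 34 of the 1289 with a name). Of the 60 probe sets 49 lay below 0, with a median of -0.56. The light-harvesting protein LHCB2 (AT2G05100) rose in CS from 6842, 3846 and 3486 to 14473, 12657 and 10429. In Creso it read 20178, 15845 and 21702 and then 23755, 23075 and 23902. All Creso arrays were above all CS arrays, and the difference was -1.25 ± 0.29 (adjusted p = 0.0462). Chlorophyll a oxygenase (AT1G44446), which makes chlorophyll b, rose by 1.18 ± 0.20 in CS and stood at -0.01 ± 0.20 in Creso, a difference of -1.19 ± 0.28 (adjusted p = 0.0471). Both were called in 4 of 12 fits without 1 array and were chosen after their values were seen.

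In the synthesis of carotenoids and ABA no difference was called by limma among 25 tested probe sets, 4 of which had an unadjusted p under 0.05. An unequal-variance t-test on the same values called none of any list after adjustment. The study had described this list, and the proline genes, on these samples. In CS 10 were called higher (1.71% of all tested) and in Creso 2 (0.707%), and none lower in either. Of the 1289 tested probe sets with a name 144 were called higher in CS and 59 in Creso. The median change was 0.53 in CS and 0.34 in Creso, and the median difference -0.35, with 19 of 25 below 0. A probe set of 9-cis-epoxycarotenoid dioxygenase, the enzyme that commits carotenoids to ABA, rose in both genotypes. It went from 2494, 2975 and 5286 to 7642, 7462 and 9775 in Creso (1.34 ± 0.28, adjusted p = 0.0127) and from 1416, 659 and 973 to 3975, 5700 and 3799 in CS (2.34 ± 0.28, adjusted p = 1.2e-04). Neither pair of groups overlapped. The difference of -1.0 ± 0.39 did not pass the test (adjusted p = 0.213).

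A probe set of phytoene synthase, the enzyme that opens the carotenoid path, rose in CS from 557, 401 and 388 to 994, 1066 and 902 (1.30 ± 0.17). In Creso it read 1962, 1640 and 2413 and then 2605, 2442 and 3259 (0.54 ± 0.17, adjusted p = 0.104). The Creso groups were apart, as were those of CS, and the difference was -0.76 ± 0.24 (adjusted p = 0.122). Another phytoene synthase probe set changed by 0.29 in CS (adjusted p = 0.55) and -0.06 in Creso, a difference of -0.35 (adjusted p = 0.655). A beta-carotene hydroxylase and a lycopene beta-cyclase had the lowest differences of the list by value, -1.80 and -1.73, with adjusted p = 0.178 and 0.201.

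Proline and dehydrin genes likewise had no called difference. Delta-pyrroline-5-carboxylate synthase, the enzyme that controls proline synthesis, rose in Creso from 8572, 10061 and 7631 to 32017, 31390 and 22525. In CS it rose from 2239, 2458 and 2016 to 10245, 15008 and 5008. The changes were 1.77 ± 0.34 and 2.20 ± 0.34 (adjusted p = 0.00687 and 7.8e-04), and their difference was -0.43 ± 0.48 (adjusted p = 0.697). None of the 12 tested proline probe sets and none of the 23 dehydrin and LEA probe sets passed the test of the difference in limma (2 and 5 at an unadjusted p under 0.05). Of the latter 5 were called higher in CS (1.71% of all tested and 144 of the 1289 with a name). None was called in Creso, where 12 had an unadjusted p under 0.05. The dehydrin matched to RAB18 rose in CS from 92.3, 68.4 and 26.4 to 271, 370 and 314. Creso read 203, 334 and 202 and then 433, 548 and 322, an overlap of 1 CTRL and 1 MS array. The difference was -1.50 ± 0.68 (adjusted p = 0.282).

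CIPK10, a kinase of calcium signalling that the study names, had a change of 0.00 ± 0.38 in Creso and 1.95 ± 0.38 in CS (adjusted p = 0.00526). CS went from 308, 228 and 232 to 888, 1003 and 831, and Creso from 3230, 2605 and 3345 to 2544, 3820 and 2493. The CS groups were apart and the Creso groups overlapped. The difference of -1.95 ± 0.54 missed the threshold at an adjusted p of 0.0826. Betaine aldehyde dehydrogenase, which makes the osmolyte glycine betaine, had a difference of -0.25 ± 0.22 (adjusted p = 0.605).

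Of 24 probe sets of sugar, fructan and starch metabolism 6 were called higher in Creso (0.707% of all tested and 59 of the 1289 with a name) and 3 in CS (1.71% and 144 of 1289), and none passed the test of the difference in limma (8 at an unadjusted p under 0.05). Beta-fructosidase, which splits sucrose, rose in Creso from 2513, 851 and 1292 to 11580, 8579 and 9874 (2.88 ± 0.68, adjusted p = 0.0274). CS read 3114, 4593 and 3504 and then 2177, 3654 and 3870. The difference was 2.94 ± 0.96 (adjusted p = 0.128). The largest difference of this list was 4.72, the same value as in the grain starch synthesis list, so the lists may share probe sets. The grain starch list had 2 of 5 called higher in Creso, and its mean was raised on Creso MS replicates 1 and 3. A part of grain RNA in the 6 calls was not tested.

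Differences of some lists moved with the grain signal. The 13 endosperm storage protein probe sets had a median difference of 2.89 with none called by limma (1 at an unadjusted p under 0.05), and the gliadin probe set with the largest difference had 5.36 ± 2.94 (adjusted p = 0.382). Its Creso MS arrays read 2162, 11.2 and 22.1 and its CS MS arrays 14064, 11336 and 12.5, so that 1 array stood apart in each group. Without those 2 arrays the list's median was 0.31. The histone and cell cycle list (26 probe sets) had a median of 0.76 with all arrays and -0.12 without the 2 arrays. The medians of the photosynthesis and transcription factor lists were -0.45 and -0.45 without them. Whether grain RNA has a part in the 202 calls was not tested beyond these values. A fit that took the endosperm storage protein mean as a covariate called 222, of which 135 were among the 202.

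**Figure D4:**
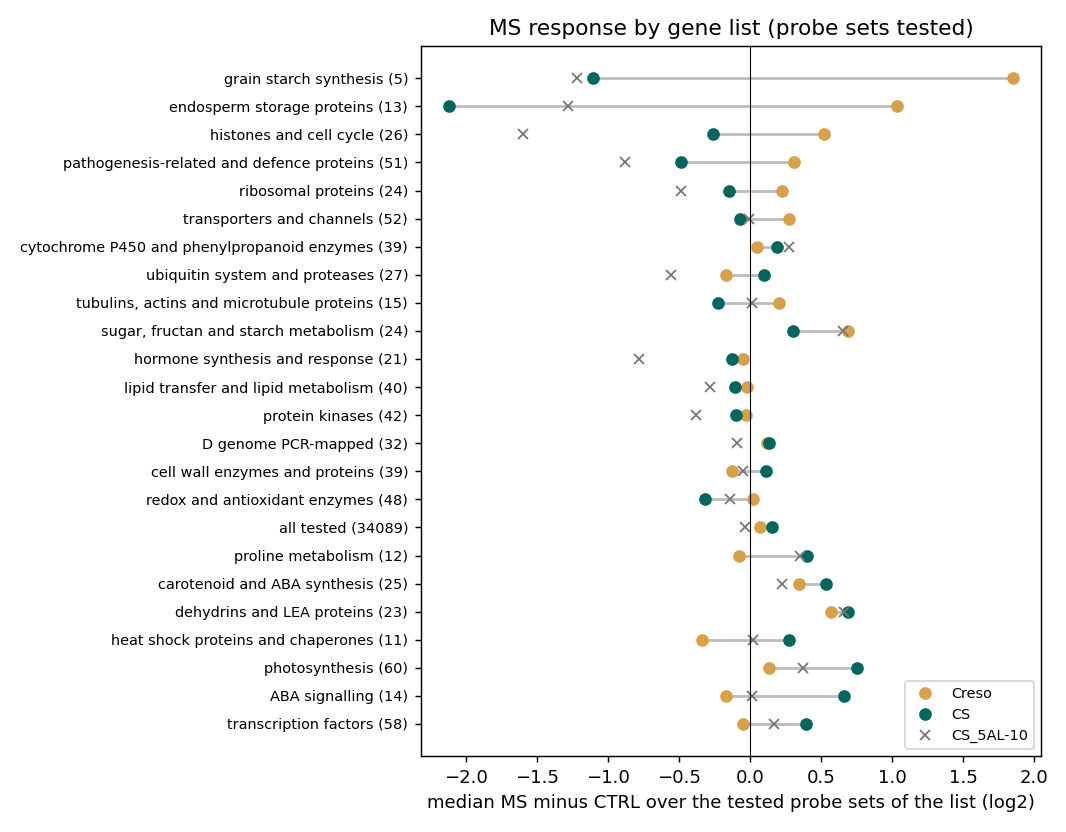
Median change from CTRL to MS on the log2 scale (x axis) over the tested probe sets of each gene list (y axis, number tested in parentheses) in Creso, CS and CS_5AL-10, ordered by the median difference between Creso and CS. The grain lists lie at the top with medians of 2.96 and 2.89, defence proteins are at 0.56, and photosynthesis (-0.56), ABA signalling (-0.65) and transcription factors (-0.66) lie at the bottom.

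CS_5AL-10 has its own CTRL and MS arrays. Its change had the sign of the CS change in 139 of the 202 called probe sets (68.8%), against 63% over all tested. The directions differed, with the same sign in 50 of the 60 higher in Creso and in 89 of the 142 lower ones. The change in CS_5AL-10 was called (2.28% of all tested) in the direction of CS in 26 and against it in 3. Of the 26, 18 were among the 60 with a higher response in Creso. The 18 include the class IV chitinase, both osmotin-like probe sets and the allergen V5/Tpx-1-related protein, all of which fell in CS_5AL-10.

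Most called probe sets had no name in the annotation used here, and the largest differences were among them. The highest went from 453, 810 and 644 to 5029, 4732 and 9526 in Creso and from 73.5, 57.2 and 79.6 to 1.42, 51.4 and 7.08 in CS, a difference of 4.68 ± 0.91 (adjusted p = 0.0218). All 6 CS arrays were at or below the array median there, and the call was lost with array weights (adjusted p = 0.0604) and without both Creso MS replicate 1 and CS MS replicate 3 (0.0591). The next, with 5 of the 6 CS arrays at or below the array median, had a difference of 3.79 ± 0.66 (adjusted p = 0.0113). Of those with a lower response, a probe set went from 1194, 751 and 782 to 169, 238 and 164 in Creso and from 34.0, 119 and 370 to 531, 588 and 315 in CS, a difference of -4.05 ± 0.70 (adjusted p = 0.0113). Another had the lowest difference, -4.35 ± 1.01 (adjusted p = 0.0465), and was called in 5 of the 12 fits without 1 array. Further probe sets of its sequence cluster, chosen after their values were seen, included differences of -3.02, -2.73 and -2.64 that stayed called in all 12 fits. Probe sets of a cluster may read the same transcript and are not independent.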

How the data were processed

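Glume RNA was measured on 27 Affymetrix Wheat Genome Arrays, 3 per genotype and treatment, with groups and replicate numbers read from the sample titles. The authors deposited linear MAS5 intensities (no version given) scaled to a trimmed mean of 500.2 or 500.3, whereas the study's own tests used RMA values of the same arrays. Here 16 was added to each intensity before log2, which understates changes of dim probe sets, and arrays were shifted to equal medians. A probe set was tested if some condition had it above the array median in all 3 replicates. The 9 group means were modelled jointly with limma 3.58.1 (R 4.3.3), using an intensity trend for the variance (5.52 prior degrees of freedom), and p-values of the interaction contrast were adjusted by Benjamini-Hochberg over 34089 probe sets. The code was tested on simulated data. The study's methods call the replicates biological.

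Members and gene lists were chosen with earlier results of these data known. Named genes are up to 15 per direction among called probe sets with a name whose difference keeps its sign and an adjusted p under 0.1 without any 1 array, up to 4 members per list with the largest differences, members of the ABA and proline lists called in either genotype, genes that the study's text names, and at most 2 unnamed per direction. Others are marked, and some genes that the rule gives are covered by counts. Names are platform symbols (on 1273 probe sets, 200 of them not a locus number, updated through the gene table of assembly GCF_018294505.1) or Arabidopsis matches (AT numbers) from a supplementary table of which 1420 probe sets were held, 1067 with a match. Since that table lists drought-responsive probe sets, named genes are not a random sample. A probe set can detect near-identical homoeologues. The alternatives were offsets of 1 and 64, no filter and a stricter one, quantile normalization, no centring and centring on the kept probe sets. Further ones were a fit of 12 arrays only, a replicate block, array weights, no variance trend and no fold threshold. An unequal-variance t-test on these values, the kind of test in the methods, and leaving out each array were also used. Dropping Creso MS replicate 1 with CS MS replicate 3, and the endosperm covariate, were added after seeing the data.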

Additional observations from a re-analysis of the deposited data

Results flagged for a closer look

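The values below were noted because the MS response differed between Creso and CS by the test of the difference itself, in limma with Benjamini-Hochberg adjustment. All are log2 differences, Creso minus CS, and most of their arrays are described above. The difference was called for 202 probe sets. Among defence and secreted proteins it was 4.63 and 3.81 for 2 osmotin-like probe sets, 3.33 for the class IV chitinase, 2.74 for the pathogenesis-related protein, 2.61 for the allergen V5/Tpx-1-related protein and 2.14 for the secretory protein. It was 3.16 for AGP19, 1.98 for inorganic pyrophosphatase, 1.93 for the ubiquitin extension protein (all 6 Creso arrays at or below the array median), 1.81 and 1.70 for 2 probe sets of glycine hydroxymethyltransferase and 1.28 for SAHH. The largest unnamed probe sets had 4.68 and 3.79, with 6 and 5 of the 6 CS arrays at or below the array median.

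Among lower responses it was -3.05 for glycosyl hydrolase family 1, -2.95 for UGT72B1, -2.80 for the nudix protein, -2.71 and -2.35 for the expressed protein matched to AT3G21570 and -2.27 for the expressed protein matched to AT5G12010. It was -2.59 for protein phosphatase 2C, -2.56 for beta-expansin, -2.38 for cytochrome P450 (all 6 Creso arrays at or below the array median), -2.27 for HSP26.5-P, -2.24 for the EF-hand protein and -2.05 for the hydrophobic protein. The ERF-type factor had -1.96, the RING finger probe sets -1.92, -1.79 and -1.61, choline kinase -1.68 and the transport inhibitor response protein -1.47. The largest unnamed probe sets had -4.35 and -4.05.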

How the results depend on the processing

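The 202 called differences became 214 with no fold threshold, 138 with an offset of 1, 337 with an offset of 64, 114 with no filter, 313 with the stricter filter, 367 with quantile normalization, 413 with no centring, 346 with centring on the kept probe sets, 74 in the 12 arrays alone, 84 with array weights and 80 with no variance trend. All 60 higher and 125 of the 142 lower calls held under each of the 3 other scalings. Leaving out 1 array gave 28 to 505, and every array but CS MS replicate 3 (136) moved the count by over 1.5 times: Creso CTRL replicates 1, 2 and 3 to 104, 79 and 450, Creso MS to 65, 392 and 481, CS CTRL to 505, 28 and 73, and CS MS replicates 1 and 2 to 88 and 29. Without both Creso MS replicate 1 and CS MS replicate 3 it was 91. An unequal-variance t-test on these values called 0 after adjustment. It had 1432 at an unadjusted p under 0.05 and 2-fold, 200 of them among the 202. The study used a test of this kind on RMA values with another filter, and tested no difference of responses. It reported MS changes in CS and none in Creso. In limma 5316 had an unadjusted p under 0.05. The count for Creso alone (436) was 176 in the 12 arrays, 112 with array weights, 0 by the t-test, 277 without both arrays and 265 to 703 without 1 array. That for CS alone (792) was 1946 with no fold threshold, 407 in the 12 arrays, 0 by the t-test and 285 to 1215 without 1 array. None of the 34 called differences that the naming rule picked turned its sign under these alternatives. Being called on the same arrays favours this, and part of the rule asks for a kept sign. Of the 23 list medians 9 turned under at least 1. The histone and cell cycle median went from 0.76 to -0.12 and the median over all tested from -0.10 to 0.03 without both arrays. The cause was not tested. The deviations of same-numbered arrays had correlations of -0.17 to 0.24. With 3 arrays per group this cannot exclude that the numbers pair the samples, and the main fit took no pairing. With the replicate number as a block 126 differences were called, 404 in Creso and 724 in CS.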
